A study of Mus musculus with 8 samples.

Results

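A set of 10 genes of the fibroblast extracellular matrix was followed across the RNA-seq libraries of mouse embryonic fibroblasts (MEFs). They were chosen by Ensembl identifier and are among the 28785 genes listed in any of these libraries. The fibrillar collagen genes are Col1a1 (ENSMUSG00000001506), Col1a2 (ENSMUSG00000029661), Col3a1 (ENSMUSG00000026043), Col5a1 (ENSMUSG00000026837) and Col5a2 (ENSMUSG00000026042). The basement membrane collagen genes are Col4a1 (ENSMUSG00000031502) and Col4a2 (ENSMUSG00000031503). The filament collagen gene Col6a1 (ENSMUSG00000001119) and the glycoprotein genes Fn1 (ENSMUSG00000026193) and Sparc (ENSMUSG00000018593) complete the set. MEFs are connective tissue cells grown from embryos. All were on a C57BL/6J background and wild type for Tsc2 (TSC2+/+). Cells were either exposed to 42 °C for 1 h and then kept at 37 °C for 3 h, or left unstressed. Chromatin pellets and cytoplasmic fractions were prepared from them, with the RNA polymerase II inhibitor alpha-amanitin in the lysis buffers. This gave 4 groups of 1 library each: chromatin after heat shock, unstressed chromatin, cytoplasm after heat shock and unstressed cytoplasm. The number of embryos or cultures behind a library is not given in the sources used here. The series also holds 2 m6A immunoprecipitation libraries and 2 inputs, which were not analysed here.

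Collagens are secreted proteins of 3 chains wound into a helix. Type I collagen joins chains from Col1a1 and Col1a2 and forms the main fibrils of connective tissue, type III (Col3a1) and type V (Col5a1, Col5a2) join or start these fibrils, type IV (Col4a1, Col4a2) forms the sheet of basement membranes, and type VI (Col6a1) forms beaded filaments. Fibronectin, the product of Fn1, is laid down by fibroblasts as a network to which cells and collagens bind, and SPARC is a secreted protein that binds calcium and collagen. RNA at chromatin includes transcripts still being made or spliced, whereas the mRNA in cytoplasm is mostly finished.

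The genes lie on 6 chromosomes in the RefSeq annotation of GRCm38.p6, with spans from 16819 bp (Col1a1, chr11:94936224-94953042) to 153130 bp (Col5a1, chr2:27886381-28039510). The gene lengths implied by the deposited values were equal to the RefSeq spans, introns included, for Col1a1, Col3a1 and Col4a2, and differed by at most 805 bp (Col1a2) for the rest. Levels are therefore given as RPKM, reads scaled to gene span and library total, and a long gene with much intron has a lower RPKM for the same amount of spliced RNA than a short one. Col3a1 (chr1:45311538-45349706) and Col5a2 (chr1:45374331-45503282) are neighbours with 24.6 kb between them. Col4a1 (chr8:11198423-11312889) and Col4a2 (chr8:11312805-11449287) are transcribed away from each other and their annotated spans overlap by 85 bp. Within Col5a1, Col4a1 and Col4a2 the annotation also has lncRNA genes (Gm13372 in Col5a1, Gm15418 and Gm32709 in or across the end of Col4a1, Gm46030 in Col4a2), so reads of these loci could be counted for either gene.

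The RefSeq promoter windows, from 250 bases before to 50 after the annotated start, covered 7 of the 10 genes. Col1a1, Col5a2 and Fn1 had no window. Of the genes at least 2-fold lower at chromatin after heat shock, the motif search therefore covered Col1a2 and not Fn1 or Col5a2. The sequences shown belong to a gene that was lower at chromatin after heat shock (Col1a2), a gene that was not (Col3a1), and the shared start of the type IV genes, which were higher. For Col1a2 (chr6:4505368-4505617) and Col3a1 (chr1:45311288-45311537), both on the plus strand, the 250 bases before the start are given. For the type IV genes the 22 bases from the start of Col4a2 to that of Col4a1 are given (chr8:11312805-11312826, plus strand, GRCm38.p6 as above). The start used for the Col4a1 window lies 63 bases inside the end of its annotated span. Capitals mark the letters CCAAT, the letters TATAAA and the letters GGGCGG.
Col1a2: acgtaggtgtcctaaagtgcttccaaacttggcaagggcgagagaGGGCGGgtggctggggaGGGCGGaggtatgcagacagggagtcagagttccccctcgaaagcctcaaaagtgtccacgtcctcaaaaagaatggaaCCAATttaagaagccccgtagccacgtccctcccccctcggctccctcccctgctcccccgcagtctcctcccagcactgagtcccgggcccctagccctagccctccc
Col3a1: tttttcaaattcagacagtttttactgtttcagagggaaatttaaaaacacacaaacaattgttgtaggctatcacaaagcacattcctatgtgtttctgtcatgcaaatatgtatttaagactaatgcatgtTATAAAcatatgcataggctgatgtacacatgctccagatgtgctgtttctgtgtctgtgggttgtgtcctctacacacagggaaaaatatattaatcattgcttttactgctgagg
Col4a2: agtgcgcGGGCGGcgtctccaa
Searched on both strands, CCAAT was found in 3 of the 7 windows (Col1a2, Col4a1 and Col4a2) and in 37.4% of all 32851 windows. TATAAA was found in Col3a1, 117 bases before its start, and in 13.6% of all windows. GGGCGG was found in 4 of the 7 (Col1a2, Col5a1, Col4a1 and Col4a2) and in 35.7% of all. The windows of Col4a1 and Col4a2 overlap, so the match shown between their starts counts for both. A heat shock element, searched as 3 alternating units of GAA and TTC with 2 bases between units, was in 0 of the 7 windows and in 0.603% of all. These matches describe letters in short windows and not binding.

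The library totals implied by the values ran from 8292312 reads (unstressed cytoplasm) to 19536459 (chromatin after heat shock). The 10 genes with the most reads in a library held 32.6% of reads in chromatin after heat shock, 21.8% in unstressed chromatin, 79.8% in cytoplasm after heat shock and 75.9% in unstressed cytoplasm. RPKM is relative to each total, so ratios between libraries depend on how these are scaled. Because each group is 1 library, no difference has a replicate check and no test was made. Intervals are exact 95% Clopper-Pearson intervals on reads unless stated, and they cover counting error only. Markers of other cell types, of the fractions and of the heat shock response were not analysed here, since names came only with the 10 genes. In such bulk libraries, fewer cells that use a gene and less RNA per cell cannot be told apart.

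All 10 genes were listed in all 4 libraries, with at least 600 reads each (Col6a1 in cytoplasm after heat shock), and all passed the filter of a mean of at least 1 RPKM that left 4688 genes. Col5a1 and Col4a2 were above 1 RPKM in both chromatin libraries and below it in both cytoplasmic ones. Together the 10 genes held 0.298% of reads in chromatin after heat shock, 0.782% in unstressed chromatin, 0.209% in cytoplasm after heat shock and 0.297% in unstressed cytoplasm. Unstressed chromatin stood apart through Fn1, which alone made up 61.2% of the reads of the 10 genes there. Without Fn1 the other genes held 0.217%, 0.304%, 0.129% and 0.184% in the same order of libraries.

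**Figure D1:**
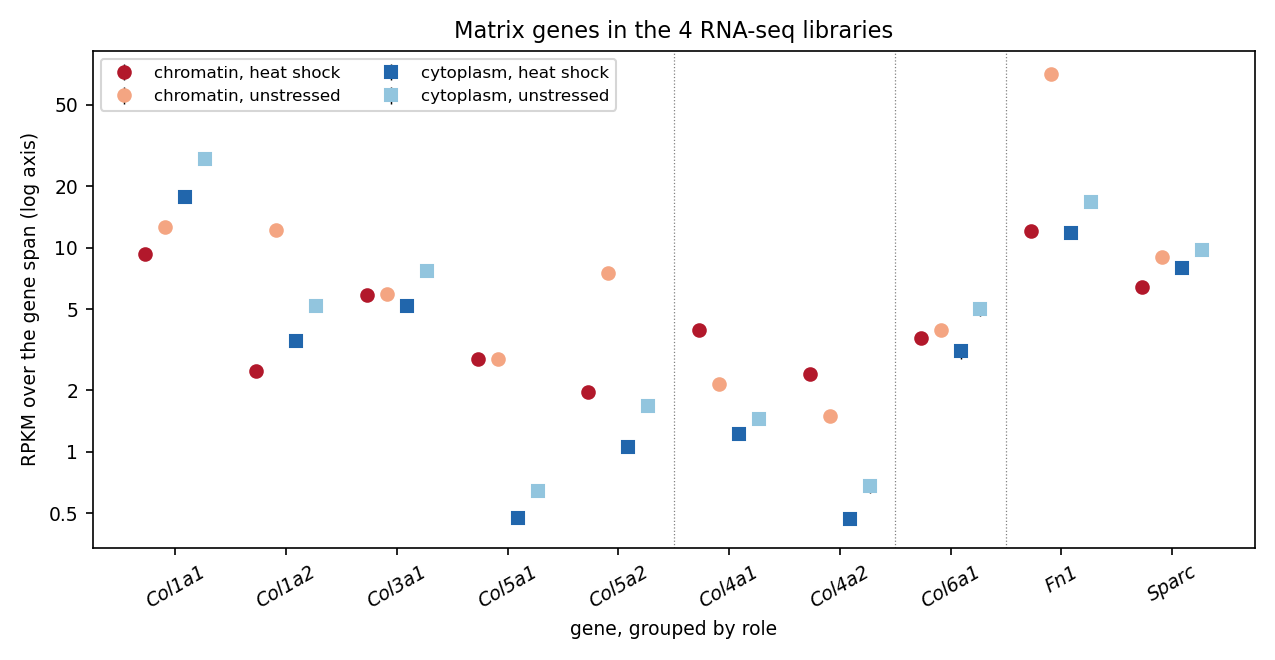
Level of each matrix gene in RPKM over the gene span (log axis) in the 4 libraries, 1 point per library, with 95% counting intervals that are mostly smaller than the points; dotted lines separate fibrillar, type IV and type VI collagens and the glycoproteins. Fn1 in unstressed chromatin (70.7 RPKM) was the highest value, and Col4a1 and Col4a2 were highest in chromatin after heat shock.

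In chromatin after heat shock the order of levels, from the highest, was Fn1, Col1a1, Sparc, Col3a1, Col4a1, Col6a1, Col5a1, Col1a2, Col4a2 and Col5a2, and in this order Col1a2 and Col4a2 were the neighbours with overlapping intervals. In unstressed chromatin the order was Fn1, Col1a1, Col1a2, Sparc, Col5a2, Col3a1, Col6a1, Col5a1, Col4a1 and Col4a2, with overlap between Col1a1 and Col1a2. Relative to unstressed chromatin, Col1a2 and Col5a2 stood lower in the order after heat shock and Col4a1 higher. In cytoplasm Col1a1 came first, then Fn1, Sparc, Col3a1, Col1a2 and Col6a1, in both conditions. The type V and type IV genes took the last 4 places in both, and Col5a1 and Col4a2 overlapped at the bottom of both orders, as did Col1a2 and Col6a1 above them.

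On the deposited scale, heat shock in chromatin separated the genes into a group that was several-fold lower, a group near or somewhat below its unstressed level, and the type IV pair, which was higher. Fn1, Col1a2 and Col5a2 were at least 2-fold lower on the RPKM + 1 scale (a pseudocount of 1 RPKM added to both values), 3 of 10 genes, against 4.66% of the 4635 kept genes compared. None of the 10 was at least 2-fold higher, against 10.4% of all. The median log2 ratio on this scale was -0.25 over the 10 genes and 0.12 over all genes.

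Among the fibrillar collagens, the genes of one collagen type did not move alike. Col1a2 had 2.49 RPKM (1789 reads) in chromatin after heat shock, against 12.2 RPKM (8206 reads) in unstressed chromatin. That is 4.88-fold lower (4.64 to 5.14). Its partner Col1a1 had 9.27 RPKM after heat shock and 12.6 RPKM unstressed, 1.36-fold lower (1.30 to 1.43). The type I genes, at about the same RPKM in unstressed chromatin, were therefore well apart after heat shock. Col5a2, a type V gene, had 1.97 RPKM (4959 reads) after heat shock, against 7.52 RPKM (17800 reads) unstressed, 3.82-fold lower (3.70 to 3.94). Col5a1, the other type V gene and the longest of the 10, had 2.85 RPKM in both chromatin libraries, from 8515 reads after heat shock and 8024 unstressed. Its ratio of 0.998 (0.967 to 1.03) lay within counting error of 1. Col3a1, the type III gene next to Col5a2 on chromosome 1, was at 5.88 RPKM after heat shock and 5.89 RPKM unstressed, also with a ratio of 0.998 (0.957 to 1.04). Col5a1 and Col3a1 were not level on every scale, with log2 ratios of -0.58 and -0.61 with the same RPKM sum and 0.17 and 0.20 without the 10 highest genes. The neighbours Col3a1 and Col5a2 differed in their chromatin ratio although they lie side by side. A change of scale moves both genes by the same factor apart from the pseudocount, so it gives no separate check of this gap.

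The type IV genes were the members with more chromatin RNA after heat shock. Col4a1 had 3.96 RPKM (8850 reads) after heat shock, against 2.14 RPKM (4497 reads) unstressed, 1.85-fold higher (1.78 to 1.92). Col4a2 had 2.39 RPKM (6384 reads) after heat shock, against 1.50 RPKM (3750 reads) unstressed, 1.60-fold higher (1.54 to 1.67). Both stayed under 2-fold and above a log2 ratio of 0 on each of the 6 other settings tried, of which the change of gene filter cannot move them. With the same RPKM sum, however, Col4a1 was at 0.22 and Col4a2 at 0.03, close to level. For comparison, the 239 kept genes with spans over 100 kb, which include the type IV and type V genes, had a median log2 ratio of -0.25 on the RPKM + 1 scale, where Col4a1 was at 0.66, Col4a2 at 0.44, Col5a1 at -0.0026 and Col5a2 at -1.52. Col6a1, a type VI chain, had 3.60 RPKM after heat shock and 3.93 RPKM unstressed, 1.09-fold lower (1.01 to 1.18), though it was higher on a scale without the 10 highest genes.

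Fn1 showed the widest gap of the 10. It had 12.0 RPKM (15864 reads) in chromatin after heat shock, against 70.7 RPKM (87932 reads) in unstressed chromatin, 5.90-fold lower (5.80 to 6.00). Its log2 ratio of -2.46 was number 7 from the lowest of 4635 genes, that of Col1a2 (-1.91) number 27 and that of Col5a2 (-1.52) number 76. By reads, Fn1 was number 8 among all genes in unstressed chromatin and number 74 after heat shock. Sparc had 6.38 RPKM after heat shock and 8.96 RPKM unstressed, 1.40-fold lower (1.34 to 1.47), close to the ratio of Col1a1. Gene span did not order these ratios: the 3 genes past 2-fold span 36.7, 67.7 and 129 kb, and genes of similar span (Col3a1 at 38.2 kb, Col4a2 at 136 kb) were level or higher. The rank correlation of ratio and span across the 10 genes was 0.31, as a description of genes that share the same libraries. With both libraries rescaled to the same RPKM sum, Col1a1 and Sparc also passed 2-fold lower, which made 5 of 10 against 20.8% of all genes on that scale.

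**Figure D2:**
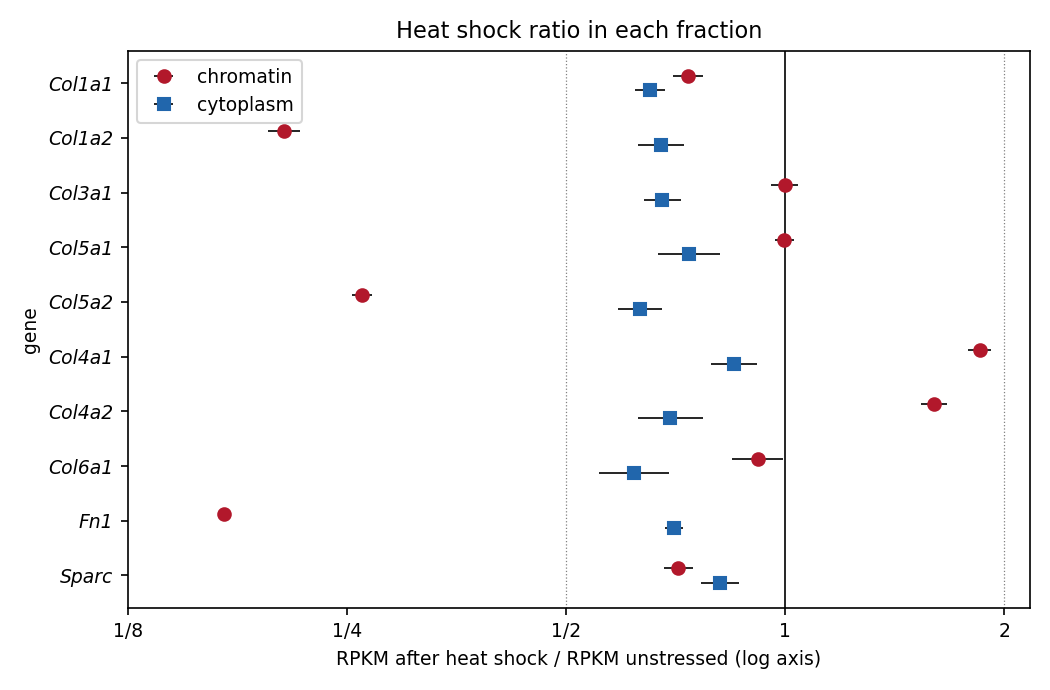
RPKM after heat shock over RPKM in unstressed cells (log axis) for each gene, in chromatin (circles) and cytoplasm (squares), with exact 95% counting intervals; dotted lines mark 2-fold. Chromatin ratios ran from 0.170 (Fn1) to 1.85 (Col4a1), and all 10 cytoplasmic ratios lay between 0.620 and 0.850.

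**Figure D3:**
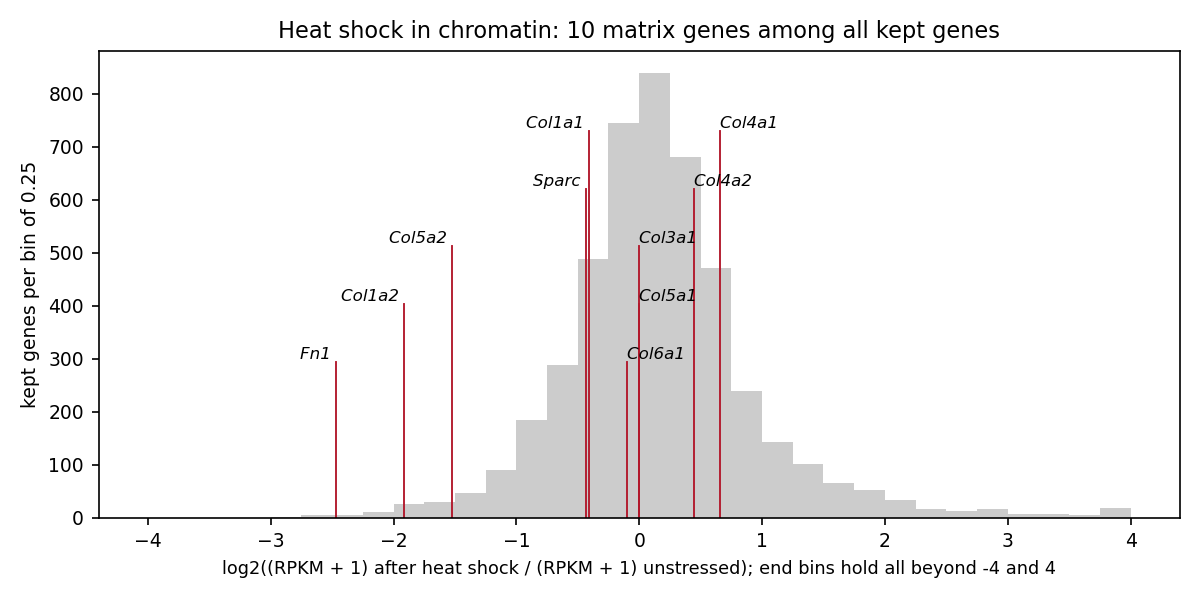
Number of kept genes (bars, bins of 0.25) by log2 ratio of RPKM + 1 in chromatin after heat shock over unstressed chromatin, with the 10 matrix genes as labelled lines; line heights carry no value. Fn1, Col1a2 and Col5a2 lie in the lower tail and the other 7 genes within the body of the distribution.

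Heat shock in cytoplasm gave a narrow range of ratios. All 10 genes had lower RPKM after heat shock, from 1.61-fold lower for Col6a1 to 1.18-fold lower for Col4a1, and each interval lay below a ratio of 1. None passed 2-fold in either direction on the RPKM + 1 scale, where 2.44% of 4505 genes did so downward and 3.4% upward. Most genes were lower on this scale, and 83.8% of all genes were below 0. The median was -0.25 over all genes and -0.42 over the 10. With no pseudocount these medians were -0.53 and -0.54, so the gap between them depended on the pseudocount. On the RPKM + 1 scale centred on the median gene, 7 of the 10 were below it and Col5a1, Col4a1 and Col4a2 above it. That count carries the same pseudocount. Without the 10 highest genes in the scale, Col4a1 alone was above 0.

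The genes that differed most at chromatin did not stand out in cytoplasm. Fn1 had 11.7 RPKM (8827 reads) in cytoplasm after heat shock and 16.7 RPKM (9346 reads) in unstressed cytoplasm, 1.42-fold lower (1.38 to 1.46). Col1a2 had 3.49 RPKM after heat shock and 5.16 RPKM unstressed, 1.48-fold lower (1.38 to 1.59). Col5a2 had 1.06 RPKM after heat shock and 1.67 RPKM unstressed, 1.58-fold lower (1.48 to 1.70). These ratios lay among those of the genes with little difference at chromatin. Col1a1, the highest of the 10 in cytoplasm, had 17.6 RPKM after heat shock and 27.0 RPKM unstressed, 1.54-fold lower (1.46 to 1.61). Col3a1 had 5.18 RPKM after heat shock and 7.65 RPKM unstressed, 1.48-fold lower (1.39 to 1.56). Col5a1 had 0.474 RPKM after heat shock and 0.644 RPKM unstressed, 1.36-fold lower (1.23 to 1.50). The fibrillar collagen genes thus lay between 1.36-fold and 1.58-fold lower, with intervals that overlap.

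On the deposited scale the type IV genes were also lower in cytoplasm, where at chromatin they were higher. Col4a1 had 1.23 RPKM after heat shock and 1.45 RPKM unstressed, 1.18-fold lower (1.09 to 1.27). Col4a2 had 0.471 RPKM after heat shock and 0.678 RPKM unstressed, 1.44-fold lower (1.30 to 1.59). Col6a1 had 3.10 RPKM after heat shock and 5.00 RPKM unstressed, with an interval for the 1.61-fold lower value of 1.45 to 1.80. Sparc had 7.92 RPKM after heat shock and 9.75 RPKM unstressed, 1.23-fold lower (1.16 to 1.31).

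The heat shock ratio at chromatin was then divided by that in cytoplasm for each gene. Fn1, Col1a2 and Col5a2 were at least 2-fold lower in this comparison on the RPKM + 1 scale, against 4.52% of 4473 genes, and none of the 10 was at least 2-fold higher, against 16.5%. On plain RPKM the chromatin ratio was 4.15-fold below the cytoplasmic one for Fn1 (approximate 95% interval from the 4 read counts, 4.01 to 4.29), 3.29-fold for Col1a2 (3.02 to 3.60) and 2.41-fold for Col5a2 (2.24 to 2.60). For Col4a2 the chromatin ratio was 2.30-fold above the cytoplasmic one (2.06 to 2.57) and for Col4a1 2.18-fold (2.01 to 2.36), so these passed 2-fold where no pseudocount was added, as did 34.4% of all genes, whose median log2 difference was then 0.70. Col6a1 and Col3a1 were 1.48-fold and 1.47-fold above, Col5a1 1.35-fold and Col1a1 1.13-fold. Sparc was 1.14-fold below. Col1a1 and Col5a1 turned to the other direction on the RPKM + 1 scale with the same RPKM sum (-0.24 and -0.32) and with the median gene set to 0 (-0.18 and -0.21).

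Chromatin was next set against cytoplasm within a condition. After heat shock Col5a1, Col4a1 and Col4a2 were at least 2-fold higher in chromatin on the RPKM + 1 scale, 3 of 10 against 45.8% of 4575 genes, and none was at least 2-fold lower, against 6.93%. In unstressed cells Fn1, Col1a2, Col5a1 and Col5a2 were at least 2-fold higher in chromatin, 4 of 10 against 32.4% of 4512 genes, and Col1a1 was at least 2-fold lower, against 11.7%. The share of the 10 genes higher in chromatin was thus not far from that of all genes in unstressed cells and somewhat below it after heat shock. With 10 genes these gaps amount to few genes, and they were not tested. These comparisons use the same 4 libraries as those of heat shock.

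These counts depend on the scale. With RPKM sums made equal, 7 of 10 genes passed 2-fold toward chromatin after heat shock, against 80.7% of all genes, and 9 of 10 in unstressed cells, against 76.7%, with none of the 10 toward cytoplasm. Without the 10 highest genes in the scale none of the 10 passed 2-fold toward chromatin, against 13.8% of all genes after heat shock and 8.49% in unstressed cells. On that scale 6 passed it toward cytoplasm after heat shock, against 26% of all genes, and 4 in unstressed cells, against 37.7%. The median log2 ratio over all genes ran from -0.05 to 1.95 among the scales after heat shock and from -0.54 to 2.01 in unstressed cells. Plain RPKM ratios keep their order under these scales, which multiply a library by 1 factor.

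On plain RPKM after heat shock, Col5a1 was 6.00-fold higher in chromatin (5.59 to 6.46), Col4a2 5.08-fold (4.70 to 5.50), Col4a1 3.22-fold (3.05 to 3.40) and Col5a2 1.86-fold (1.76 to 1.98). Fn1 had 12.0 RPKM in chromatin and 11.7 RPKM in cytoplasm after heat shock, a ratio of 1.02 (0.998 to 1.05) within counting error of 1. Col1a2 was 1.40-fold lower in chromatin after heat shock (1.30 to 1.50), Sparc 1.24-fold lower and Col1a1 1.90-fold lower, while Col3a1 (1.13-fold) and Col6a1 (1.16-fold) were higher. In unstressed cells Col5a2 (4.49-fold), Col5a1 (4.43-fold) and Fn1 (4.25-fold) were highest in chromatin relative to cytoplasm. Col1a2 (2.36-fold), Col4a2 (2.21-fold) and Col4a1 (1.48-fold) came after these. Sparc, Col6a1 and Col3a1 were 1.09-fold, 1.27-fold and 1.30-fold lower in chromatin, and Col1a1 2.15-fold lower. Fn1 and Col1a2, which were among the genes higher in chromatin in unstressed cells, were level or lower there after heat shock.

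In both conditions the genes with longer spans tended to have the higher chromatin to cytoplasm ratios. The rank correlation of this ratio with span, on the RPKM + 1 scale, was 0.84 across the 10 genes after heat shock and 0.67 in unstressed cells. It describes 10 genes from the same libraries. The trend was not particular to them, since median log2 ratios of all kept genes also rose across the span classes that hold the 10. After heat shock the medians for spans of 5 to 20, 20 to 100 and over 100 kb were 0.74, 1.19 and 1.39. In unstressed cells they were 0.30, 0.98 and 1.50 in that order. After heat shock Fn1 and Col1a2 lay below Col4a1, which has a longer span, and in unstressed cells both lay above it. Relative to all genes, Fn1 was at percentile 18.9 of this ratio after heat shock and 95.2 in unstressed cells, and Col1a2 at 13.0 after heat shock and 71.9 in unstressed cells.

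**Figure D4:**
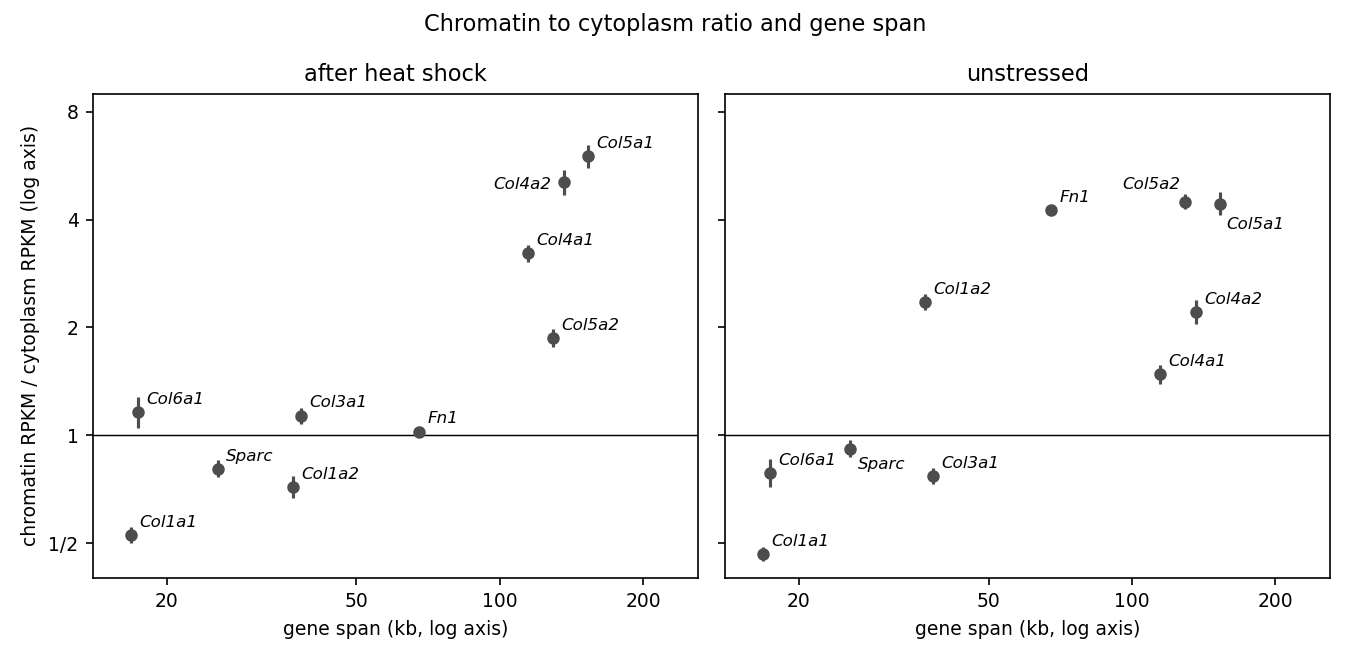
Chromatin RPKM over cytoplasm RPKM (log axis) against gene span in kb (log axis) for the 10 genes, after heat shock (left) and in unstressed cells (right), with exact 95% counting intervals. Fn1 was at 1.02 after heat shock and 4.25 in unstressed cells, and Col1a2 at 0.715 and 2.36.

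Ratios between genes of the same library do not depend on its total, and they were compared across libraries for genes whose chains join in 1 collagen. Col1a1 over Col1a2, in RPKM, was 3.72 (3.51 to 3.94) in chromatin after heat shock and 1.04 (0.997 to 1.08) in unstressed chromatin. In cytoplasm it was 5.05 (4.75 to 5.38) after heat shock and 5.23 (4.93 to 5.55) unstressed, with overlapping intervals. The ratio of the type I genes therefore differed between the chromatin libraries and not beyond counting error between the cytoplasmic ones. Col5a1 over Col5a2 was 1.45 (1.40 to 1.50) in chromatin after heat shock and 0.380 (0.370 to 0.390) in unstressed chromatin. In cytoplasm it was 0.449 (0.412 to 0.489) after heat shock and 0.385 (0.354 to 0.418) unstressed. Chromatin after heat shock was thus the single library in which Col5a1 exceeded Col5a2. Col4a1 over Col4a2 was 1.65 (1.60 to 1.71) in chromatin after heat shock, 1.43 (1.37 to 1.49) in unstressed chromatin, 2.61 (2.39 to 2.85) in cytoplasm after heat shock and 2.13 (1.95 to 2.33) in unstressed cytoplasm. The type IV ratio kept 1 direction in all 4 libraries. In both fractions it was higher after heat shock than unstressed, with intervals that did not overlap. For the neighbours on chromosome 1, Col3a1 over Col5a2 was 2.99 (2.87 to 3.11) in chromatin after heat shock, 0.784 (0.757 to 0.811) in unstressed chromatin, 4.91 (4.59 to 5.24) in cytoplasm after heat shock and 4.57 (4.30 to 4.86) in unstressed cytoplasm. As these values are per kilobase of span, they are not ratios of mRNA molecules.

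**Figure D5:**
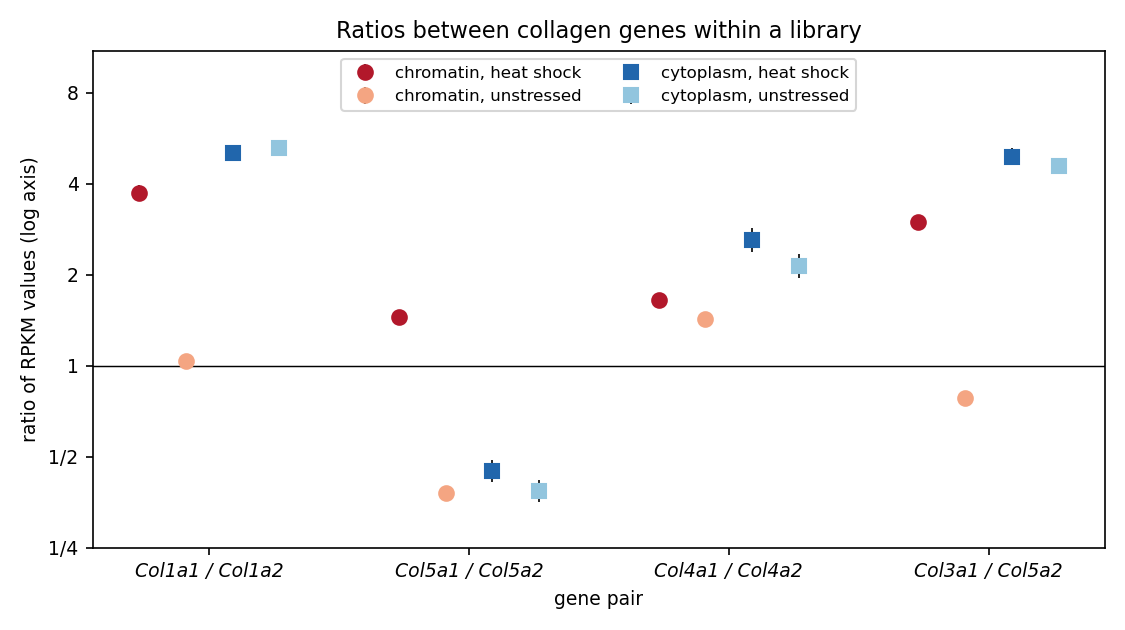
Ratio of RPKM values (log axis) of 2 collagen genes within a library, for 4 gene pairs and 4 libraries, 1 point per library with exact 95% counting intervals. For Col1a1 / Col1a2, Col5a1 / Col5a2 and Col3a1 / Col5a2 the widest gap between conditions is in chromatin (3.72 and 1.04 for the type I genes), while the cytoplasmic points lie close together (5.05 and 5.23).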

How the data were processed

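RNA-seq of 4 libraries was analysed, grouped by sample title. Each deposited file holds 1 value per Ensembl gene, computed by the authors and labelled RPKM in the file name, and lists no gene at 0. Cutadapt, STAR and GRCm38 are named without versions, per the submitters' processing notes. The sources used here do not give the counter, the annotation release or the strand handling.

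The RPKM values are whole multiples of the worth of 1 read. Library totals were recovered as common divisors of inverse values (tolerance 0.002, 20000 random pairs), and reads and gene lengths as the smallest whole numbers that give the values. This was tested on simulated data. The reads so obtained made up 98.5%, 98.4%, 99.7% and 99.6% of each total (chromatin after heat shock, unstressed chromatin, cytoplasm after heat shock, unstressed cytoplasm). Lengths of the 10 genes matched RefSeq spans closely, so their reads are taken as complete.

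Folds are plain RPKM ratios. Counts use log2((RPKM + 1)/(RPKM + 1)) over genes with a mean of at least 1 RPKM and reads in both libraries. The rule for named genes took all 10 genes, up to 3 genes in each direction past 2-fold from each other matrix list, always Serpinh1, P4ha1, P4hb, Lox, Col6a2, Col6a3, Col5a3, Bgn, Mmp2 and Timp1, and the 3 genes nearest to the median profile. The listed genes beyond the 10, and the cell type markers, were not analysed here, since the reference table used gave Ensembl identifiers for 0 genes. The members and lists were chosen with earlier results of these data known. Promoters came from RefSeq (GRCm38.p6). Alternatives changed the pseudocount, the scale and the filter. Python 3.11.15, numpy 2.4.6, pandas 2.3.3, scipy 1.17.1 and matplotlib 3.10.9 were used.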

Additional observations from a re-analysis of the deposited data

Results flagged for a closer look

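The values below were singled out because a gene had opposite directions in the chromatin and cytoplasmic libraries, or in the libraries of each condition, with counting intervals on either side of a ratio of 1. With 1 library per group the differences were not tested. Col4a1 and Col4a2 had more RNA at chromatin after heat shock and less in cytoplasm, with differences of log2 RPKM ratios (chromatin minus cytoplasm) of 1.12 and 1.20. The median of this difference over all genes was 0.70 and 34.4% of them passed 2-fold, so these values lie within the common range, and the cytoplasmic log2 ratios of Col4a1 and Col4a2 turned to 0.12 and 0.06 with the median gene set to 0. Col1a2 was lower in chromatin than in cytoplasm after heat shock and higher in unstressed cells, a difference (heat shock minus unstressed) of -1.72. Col3a1 and Col6a1 were higher in chromatin than in cytoplasm after heat shock and lower in unstressed cells, with differences of 0.56 for each. This difference is the same quantity as the one given for Col4a1 and Col4a2, read the other way. Col3a1 and Col6a1 therefore lie below its median of 0.70 over all genes. The directions of the fraction ratios hold on the deposited scale, and with the same RPKM sum all 10 genes were higher in chromatin in both conditions.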

How the results depend on the processing

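No paired analysis was possible because each group has 1 library. The count of genes at least 2-fold lower after heat shock in chromatin was 3 under all 6 alternatives except the same RPKM sum, with 5. For the heat shock ratio in chromatin over that in cytoplasm it was 3 under all 6. In each, Fn1, Col1a2 and Col5a2 were among them. The share of all genes did move. In chromatin it was 4.66%, against 9.77% with no pseudocount, 20.8% with the same RPKM sum and 3.71% with the alternative filter. For the heat shock ratio in chromatin over that in cytoplasm it was 4.52%, against 5.77%, 12.2% and 3.80% in the same order. For heat shock in cytoplasm the count was 0 in both directions under all 6. There the share of all genes at least 2-fold lower was 2.44%, against 15.7%, 4.08% and 1.57% in the same order. The share at least 2-fold higher was 3.40%, against 6.04%, 2.91% and 2.65%. The alternative filter could not change any of these counts, since it leaves the values of the 10 genes as they were. With a pseudocount of 0.1 RPKM or none, 2 genes (Col4a1 and Col4a2) had a heat shock ratio in chromatin at least 2-fold above that in cytoplasm, against 0 with 1 RPKM, while 30.5% and 34.4% of all genes passed. For chromatin over cytoplasm after heat shock, 3 were higher on the deposited scale (45.8% of all genes), against 7 with equal RPKM sums (80.7%), 0 with median centring (8.57%) and 0 with a scale that omits the 10 highest genes (13.8%), and 0 were lower (6.93%), against 3 with median centring (17.1%) and 6 without the 10 highest (26.0%). In unstressed cells, 4 were higher (32.4% of all genes), against 9 with equal sums (76.7%), 2 with median centring (12.1%) and 0 without the 10 highest (8.49%), and 1 was lower (11.7%), against 0 with the same sum (4.14%) and 4 without the 10 highest (37.7%). The log2 ratio of Col1a1 in unstressed cells turned to 0.55 with the same sum. Without the 10 highest genes that of Col1a2 in unstressed cells turned to -0.41 and that of Col4a1 after heat shock to -0.013. The scales multiply a library, or shift its log2 ratios, by 1 factor for all genes. Depth limits these values little, since none of the 10 genes had under 600 reads in a library, while variation between cultures was not measured.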

Other observations

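Among kept genes outside the 10, those whose centred log2(RPKM + 1) over the 4 libraries lay nearest to the median profile of the 10 were ENSMUSG00000065176 (span 151 bp, Euclidean distance 0.27), ENSMUSG00000020612 (20252 bp, 0.27) and a gene of 7113 bp (0.28). With 4 libraries this likeness is a description. The members themselves lay from 0.49 (Col6a1) to 1.71 (Fn1) from that median. The genes above were picked as the nearest of all kept genes, so that members lay farther was close to fixed beforehand.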
